A study of Mus musculus with 27 samples.

Results

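Lipid droplets carry a coat of proteins that decides how much fat they take up and how fast it is released, and 10 genes of this coat and of droplet formation were examined in mouse liver: Cidea, Cideb, Cidec, Plin2, Plin3, Plin4, Plin5, Fitm1, Fitm2 and G0s2. They were taken by name from the array's annotation. Of the 10 genes, 9 had a probe set (the group of probes that reads a transcript) of their own, out of 18820 genes with such a probe set. All 9 passed the methods' intensity minimum (above 20 on at least 5 arrays), as did 13603 genes in all. Cidea passed it almost only through the MF- and C-fed mice, so its differences from them are given as descriptions and support nothing. The only probe set of Fitm2 also named 2310001K24Rik, so Fitm2 has no value here. Livers came from 27 male C57BL/6J mice aged 12 months, with 1 array per mouse. Of these, 7 mice had received the INT regimen, which alternated a week of a medium fat diet ad libitum with a week of food reduced by 40% of energy, and they were sacrificed in the ad libitum week. Another 6 mice had received CR, a daily portion with 30% less energy. A further 7 mice had received MF, the medium fat diet (25% of energy as fat) ad libitum, and 7 mice had received C, the AIN-93W control diet ad libitum. The diets started at 9 weeks of age. All mice were fasted for 4 hours, given a gavage of carboxymethyl cellulose and fasted for 6 hours more before sacrifice. The results hold for males of one inbred strain, and for INT in the ad libitum week only.

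Hepatocytes store triglyceride in droplets that bud from the endoplasmic reticulum. FITM proteins stay in that membrane and hand triglyceride to the growing droplet, so that Fitm1 and Fitm2 act in droplet formation rather than on the droplet surface. Perilipins coat the droplet and control the access of lipases, whereas CIDE proteins gather where droplets touch and pass lipid from the smaller to the larger droplet. G0s2 binds and inhibits adipose triglyceride lipase (Pnpla2), the enzyme that starts lipolysis. Cideb is the CIDE protein of the healthy hepatocyte and takes part in loading lipid onto very low density lipoproteins. Cidea and Cidec are best known from brown and white fat and appear in liver when fat builds up.

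Positions are those of the mouse genome build GRCm38.p6. The genes of Plin3, Plin4 and Plin5 stand together on chromosome 17. Plin4 (chr17:56100587-56109948) and Plin5 (chr17:56111597-56117606) are 1648 bases apart, and Plin3 (chr17:56278962-56290511) follows after 161355 bases. On chromosome 14, Fitm1 (chr14:55575674-55576952) and Cideb (chr14:55754052-55758424) are 177099 bases apart. The others are single, with Plin2 at chr4:86626910-86670217, Cidec at chr6:113424634-113435760, G0s2 at chr1:193272160-193273188 and Fitm2 at chr2:163468703-163472629.

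Promoter sequences are shown for 4 genes, since Plin2 and Cidec moved together between livers and Plin4 and Plin5 are neighbours on chromosome 17. They are RefSeq windows of GRCm38.p6, from 250 bases before to 50 bases after the start, all on the minus strand: chr4:86670010-86670309 for Plin2, chr6:113435711-113436010 for Cidec (the first of its starts), chr17:56109733-56110032 for Plin4 and chr17:56117499-56117798 for Plin5. Capitals mark matches to 4 motifs searched on both strands. The DR1 motif, bound by PPAR with RXR, is AGGTCA given in the same direction on both sides of 1 free base, with at most 2 of its 12 letters different. The E-box is CACGTG, the cyclic AMP response element is TGACGTCA, and the last is TATAA.
Plin2: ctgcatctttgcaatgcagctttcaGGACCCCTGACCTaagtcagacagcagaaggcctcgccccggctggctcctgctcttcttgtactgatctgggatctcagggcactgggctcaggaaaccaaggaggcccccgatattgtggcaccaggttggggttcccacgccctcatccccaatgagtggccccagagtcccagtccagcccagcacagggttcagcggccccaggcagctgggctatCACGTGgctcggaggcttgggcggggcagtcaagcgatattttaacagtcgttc
Cidec: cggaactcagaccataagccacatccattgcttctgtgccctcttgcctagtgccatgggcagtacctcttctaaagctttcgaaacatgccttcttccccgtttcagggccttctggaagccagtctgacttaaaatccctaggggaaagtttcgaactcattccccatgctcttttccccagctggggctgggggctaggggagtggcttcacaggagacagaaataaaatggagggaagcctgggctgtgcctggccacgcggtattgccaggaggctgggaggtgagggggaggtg
Plin4: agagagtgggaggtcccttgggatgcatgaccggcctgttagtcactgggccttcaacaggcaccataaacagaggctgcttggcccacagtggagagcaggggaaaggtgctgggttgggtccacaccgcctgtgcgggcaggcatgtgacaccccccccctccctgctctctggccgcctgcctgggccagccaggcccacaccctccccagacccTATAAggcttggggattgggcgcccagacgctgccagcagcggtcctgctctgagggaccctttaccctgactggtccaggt
Plin5: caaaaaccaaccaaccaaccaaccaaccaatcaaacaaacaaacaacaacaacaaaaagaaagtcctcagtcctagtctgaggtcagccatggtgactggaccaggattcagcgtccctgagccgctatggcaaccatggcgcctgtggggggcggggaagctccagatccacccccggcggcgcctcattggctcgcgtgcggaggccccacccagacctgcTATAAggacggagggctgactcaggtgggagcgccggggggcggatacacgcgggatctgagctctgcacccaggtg
Windows were found for 9 of the 10 genes, 11 windows in all, and Cidea was not among them. DR1 stood in 1 of the 11 windows, that of Plin2, where it starts 225 bases before the start of the gene, on the opposite strand and with 2 letters different. The share over all 32851 windows of the table was 3.86%. The E-box stood in 1 window, also of Plin2, from 4 bases before the start (7.15% of all windows), and the cyclic AMP element in 0 (1.79%). TATAA, added to the search after the sequences had been read, stood in 3 windows (24.9% of all), 32 bases before the start of Plin4, 27 bases before that of Plin5 and 172 bases before that of Cideb. A match is a description of the letters and not a binding site.

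Levels are log2 intensities after the authors' normalization, so that a difference of 1 is a doubling. Normalization had brought the medians of the arrays to between 5.21 and 5.27, and pairs of arrays had a Pearson's r of 0.982 to 0.992. The interquartile range averaged 3.63 (SD 0.03) log2 units over the 16 arrays of replicates 1 to 4 and 3.72 (SD 0.03) over the 11 arrays of replicates 5 to 7, and each of these array sets held all diets. The set is no batch named in the labels, and values within it are given where they differ. Diets were compared with limma over all 27 arrays and a gene was called where its p, adjusted by Benjamini-Hochberg over 13603 genes, was under 0.05. The p-values measure the spread between mice. The labelled tissue was checked by its hepatocyte markers: Alb lay between 13.49 and 13.74 in all livers.

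Of the 8 droplet genes other than Cidea, 4 were lower in the livers of CR-fed mice than in those of MF- and C-fed mice. Between INT and CR, Plin2, Fitm1 and G0s2 were higher in INT-fed mice and 0 lower, so that 3 of the 8 were called where 8.37% of all genes were called higher and 6.62% lower. Between CR and MF, Cidec, Plin2, Fitm1 and G0s2 were lower in CR-fed mice and 0 higher, against 11.2% of all genes lower and 8.57% higher. The same 4 were lower and 0 higher between CR and C, against 9.05% lower and 8.46% higher. limma also returned Cidea as lower in both comparisons, where all CR-fed mice lay under the minimum. No member was called between INT and MF, INT and C or MF and C, where 0% of all genes were called in each comparison by limma. An unadjusted p under 0.05 was reached by 1479, 922 and 464 genes there. The comparisons with CR share the CR-fed mice. The median difference over the 8 genes was 0.28 between INT and CR, -0.88 between CR and MF and -0.62 between CR and C, and over all genes tested it was -0.001, -0.002 and 0.004. It was -0.33 between INT and MF, -0.24 between INT and C and 0.16 between MF and C, and over all genes -0.003, 0.005 and 0.009. In whole liver, fewer cells that express a gene and less RNA per cell cannot be told apart.

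**Figure D1:**
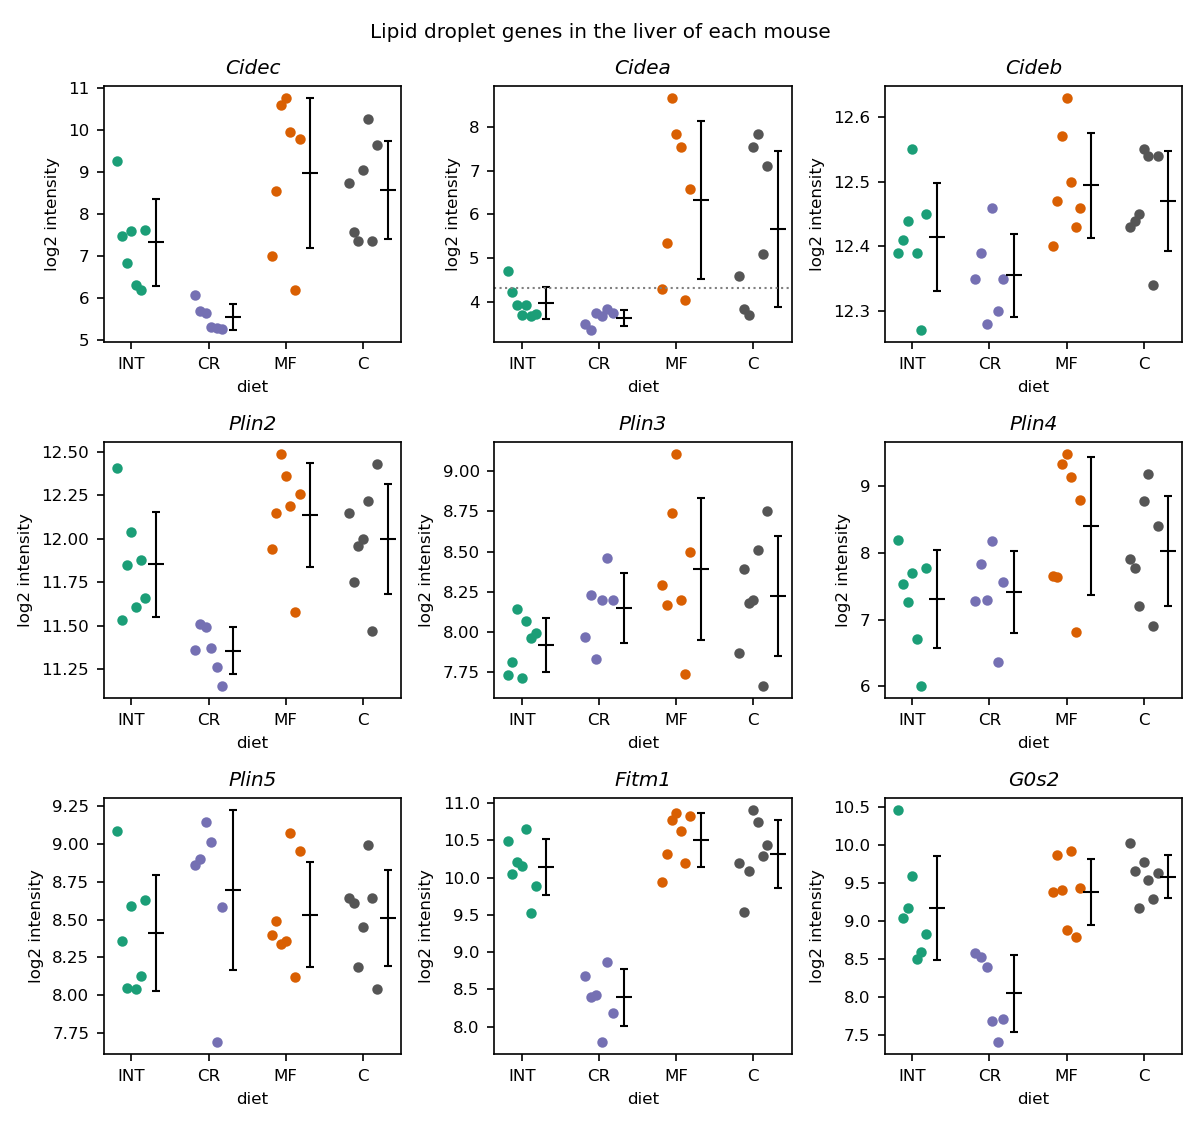
Log2 intensity (y axis) of each droplet gene in every liver, by diet (x axis: INT, CR, MF, C). Points are mice, and the bar beside them gives the mean with the SD (n = 7, 6, 7 and 7). The dotted line in the Cidea panel is the intensity of 20 (4.32 on the log2 scale), which was not reached in 6 of 7 INT-fed mice and in 6 of 6 mice on CR.

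Fitm1, which partitions triglyceride into new droplets and is best known from muscle, separated the CR-fed mice from all others. Its log2 intensity had a lowest, median and highest value of 9.52, 10.16 and 10.65 in INT-fed, 7.79, 8.42 and 8.87 in CR-fed, 9.94, 10.62 and 10.86 in MF-fed and 9.54, 10.29 and 10.91 in C-fed mice. The highest CR-fed liver lay below the lowest liver of each other diet. How many of all genes had groups without overlap was not counted, for Fitm1 or for the genes below. Fitm1 was higher in INT than in CR by 1.74 (standard error 0.20, limma adjusted p = 7.6e-07). It was lower in CR than in MF, with -2.11 (standard error 0.20, adjusted p = 3.58e-08), a 4.32-fold difference, and than in C, with -1.92 (standard error 0.20, adjusted p = 1.62e-07). Its calls were made within replicates 1 to 4 and within replicates 5 to 7 as well. Of the muscle markers, Myh4 lay under 20 on all arrays. The summed intensity of 6 muscle markers was 147.7 to 175.6 in INT-fed, 137.5 to 188.1 in CR-fed, 138 to 176.1 in MF-fed and 142.9 to 168.4 in C-fed mice, and 0 of the 4 that passed the minimum were called in any comparison.

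G0s2, the inhibitor of adipose triglyceride lipase, was also lower in CR. Its lowest, median and highest log2 intensities were 8.50, 9.03 and 10.46 in INT-fed, 7.40, 8.05 and 8.57 in CR-fed, 8.79, 9.41 and 9.92 in MF-fed and 9.17, 9.63 and 10.02 in C-fed mice. CR-fed mice overlapped with INT-fed mice but with no mouse on MF or C. The differences were 1.12 between INT and CR (standard error 0.26, limma adjusted p = 0.0029), -1.34 between CR and MF (standard error 0.26, adjusted p = 0.000394) and -1.53 between CR and C (standard error 0.26, adjusted p = 9.29e-05). Between INT and CR the call was lost within replicates 5 to 7, where CR has 2 mice (1.08, adjusted p = 0.0575). The lipase itself, Pnpla2, which was named here for its link to G0s2 after its values were seen, was called as well, at 0.36 between INT and CR, -0.36 between CR and MF and -0.44 between CR and C (adjusted p = 0.00614, 0.00587 and 0.00102).

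Plin2, the main perilipin of hepatocytes, followed with smaller differences. Its lowest, median and highest log2 intensities were 11.53, 11.85 and 12.41 in INT-fed, 11.15, 11.37 and 11.51 in CR-fed, 11.58, 12.19 and 12.49 in MF-fed and 11.47, 12.00 and 12.43 in C-fed mice. All CR-fed livers lay below all INT- and MF-fed livers and overlapped with the C-fed livers only at the edge. Plin2 was higher in INT than in CR by 0.49 (standard error 0.15, limma adjusted p = 0.0208), a 1.41-fold difference. It was lower in CR than in MF, with -0.78 (standard error 0.15, adjusted p = 3e-04), and than in C, with -0.64 (standard error 0.15, adjusted p = 0.00252). The call between INT and CR was lost without INT replicate 1 (0.40, adjusted p = 0.0541) or CR replicate 6 (0.45, adjusted p = 0.0528), with the mouse number of the labels as a block (0.45, adjusted p = 0.0504) and by the methods' Tukey test with Benjamini-Hochberg adjustment (adjusted p = 0.16). All 3 calls were lost within replicates 5 to 7, with differences of 0.51, -0.80 and -0.83.

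Cidec, which enlarges droplets, covered the widest span. Its lowest, median and highest log2 intensities were 6.20, 7.48 and 9.26 in INT-fed, 5.26, 5.47 and 6.06 in CR-fed, 6.19, 9.80 and 10.78 in MF-fed and 7.35, 8.75 and 10.26 in C-fed mice. Every CR-fed liver lay below every liver of the other diets, whereas INT, MF and C overlapped. Cidec was 10.9-fold lower in CR than in MF (log2 difference -3.44, standard error 0.63, limma adjusted p = 0.000234) and 8.19-fold lower than in C (-3.03, standard error 0.63, adjusted p = 0.00104). Between INT and CR, where the groups did not overlap, it differed by 1.79 (standard error 0.63) at an adjusted p of 0.0537 and was not called. It was called there with only the 2 groups in the fit (adjusted p = 0.00428), with array weights (0.0359), after median centring (0.0472), with a mean intensity above 50 (0.0444) or all arrays above 20 (0.0483) as the minimum, and without any 1 of INT replicates 5 and 6, MF replicates 1, 3, 4 and 6 and C replicate 5 (adjusted p = 0.0264 to 0.047), and not within replicates 1 to 4 (2.12, adjusted p = 0.0753) or 5 to 7 (1.43, adjusted p = 0.563). Within replicates 5 to 7 the differences of -3.37 from MF and -3.81 from C did not pass either (adjusted p = 0.145 and 0.0852).

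Cidea (chr18:67343564-67367794), the CIDE gene of brown fat, lay under the intensity minimum in nearly all livers of INT- and CR-fed mice. Its lowest, median and highest log2 intensities were 3.68, 3.92 and 4.69 in INT-fed, 3.34, 3.70 and 3.84 in CR-fed, 4.04, 6.58 and 8.67 in MF-fed and 3.70, 5.08 and 7.84 in C-fed mice. It reached 20 in 1 of 7 INT-fed, 0 of 6 CR-fed, 5 of 7 MF-fed and 5 of 7 C-fed livers. A gene that passes the minimum only where it is high has to differ from where it is low, and the CR-fed mice give no more than a bound. With CR-fed mice set to an intensity of 20, the mean of the MF-fed mice was at least 4.01-fold and that of the C-fed mice at least 2.54-fold higher than in CR. As measured, CR minus MF was -2.69 (adjusted p = 0.0049 by limma) and CR minus C was -2.04 (adjusted p = 0.0352). The p against C was above 0.05 without any 1 of C replicates 4, 5 and 7 or CR replicates 1, 2, 3, 4 and 6 (up to 0.0877), within each set of replicates (0.372 and 0.118), with trended and robust variances (0.0534), with the mouse number as a block (0.0611) and by the methods' Tukey test with Benjamini-Hochberg adjustment (0.265). That against MF was above 0.05 within replicates 5 to 7 (0.252) and by the same Tukey test (0.0563). Nearly all INT- and CR-fed mice lay under 20, so no fold is given between them.

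The other 4 genes were called in no comparison. Cideb varied little, with medians of 12.41 in INT-fed, 12.35 in CR-fed, 12.47 in MF-fed and 12.45 in C-fed mice and all 27 values between 12.27 and 12.63. Its difference between CR and MF, -0.14 (standard error 0.05), stood at the threshold (limma adjusted p = 0.0506) and passed it in several other settings, such as with the array set as a block (-0.15, adjusted p = 0.0395) or without any 1 of INT replicates 4 and 6, CR replicate 4, MF replicates 1 and 6 and C replicate 6 (adjusted p = 0.0332 to 0.0447). Plin3, a perilipin that moves between cytosol and droplets, had medians of 7.96 in INT-fed, 8.20 in CR-fed, 8.29 in MF-fed and 8.20 in C-fed mice, and its values overlapped between all diets. Plin4, which coats new droplets in fat cells, had medians of 7.53 in INT-fed, 7.42 in CR-fed, 8.80 in MF-fed and 7.91 in C-fed mice, with -0.99 between CR and MF (standard error 0.42, adjusted p = 0.101, and 0.0265 without MF replicate 6).
Plin5, which ties droplets to mitochondria in tissues that burn fat, had lowest, median and highest log2 intensities of 8.04, 8.36 and 9.08 in INT-fed, 7.69, 8.88 and 9.14 in CR-fed, 8.12, 8.40 and 9.07 in MF-fed and 8.04, 8.61 and 8.99 in C-fed mice. It was the gene whose highest median lay in CR, and CR replicate 5, at 7.69, was the lowest of all 27 livers. Between CR and MF the difference was 0.17 (95% interval -0.25 to 0.59). It was 0.58 within replicates 1 to 4, where limma called it (adjusted p = 0.0235), and -0.58 within replicates 5 to 7 (adjusted p = 0.487), so that its direction differed between the array sets. CR has 2 mice in the second set (7.69 and 8.58). With single mice left out, the difference lay between 0.08 (without CR replicate 3) and 0.37 (without CR replicate 5).

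Against MF and C, the INT-fed mice gave no called droplet gene, and the intervals were wide. Cidea stood at -2.35 between INT and MF (95% interval -3.68 to -1.02, adjusted p = 0.324) and at -1.69 between INT and C (-3.02 to -0.36, adjusted p = 0.64). Cidec stood at -1.66 against MF (-2.89 to -0.42, adjusted p = 0.366) and at -1.24 against C (-2.48 to -0.01, adjusted p = 0.731). For Plin4 the estimate against MF was -1.10 (-1.93 to -0.26) and for Plin3 -0.48 (-0.81 to -0.14). The estimates of the 8 genes other than Cidea were all below 0 against both diets, which share the INT-fed mice. Several of these genes are related between livers, so the 8 are not separate results. Cidea, under 20 in 6 of 7 INT-fed mice, is a description. Within replicates 1 to 4 Plin5 turned against both diets (0.12 and 0.05), G0s2 against MF (0.18) and Fitm1 against C (0.04). Over all mice the estimates for Fitm1 and G0s2 were small, -0.37 (-0.77 to 0.03) and -0.22 (-0.72 to 0.29) against MF and -0.18 (-0.58 to 0.22) and -0.41 (-0.92 to 0.09) against C. Between MF and C, Cidea differed by 0.66 (-0.67 to 1.99) and Cidec by 0.41 (-0.83 to 1.65). With single mice left out, they lay between 0.27 (without MF replicate 3) and 1.04 (without MF replicate 6) for Cidea and between 0.11 (without MF replicate 4) and 0.88 (without MF replicate 6) for Cidec.

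**Figure D2:**
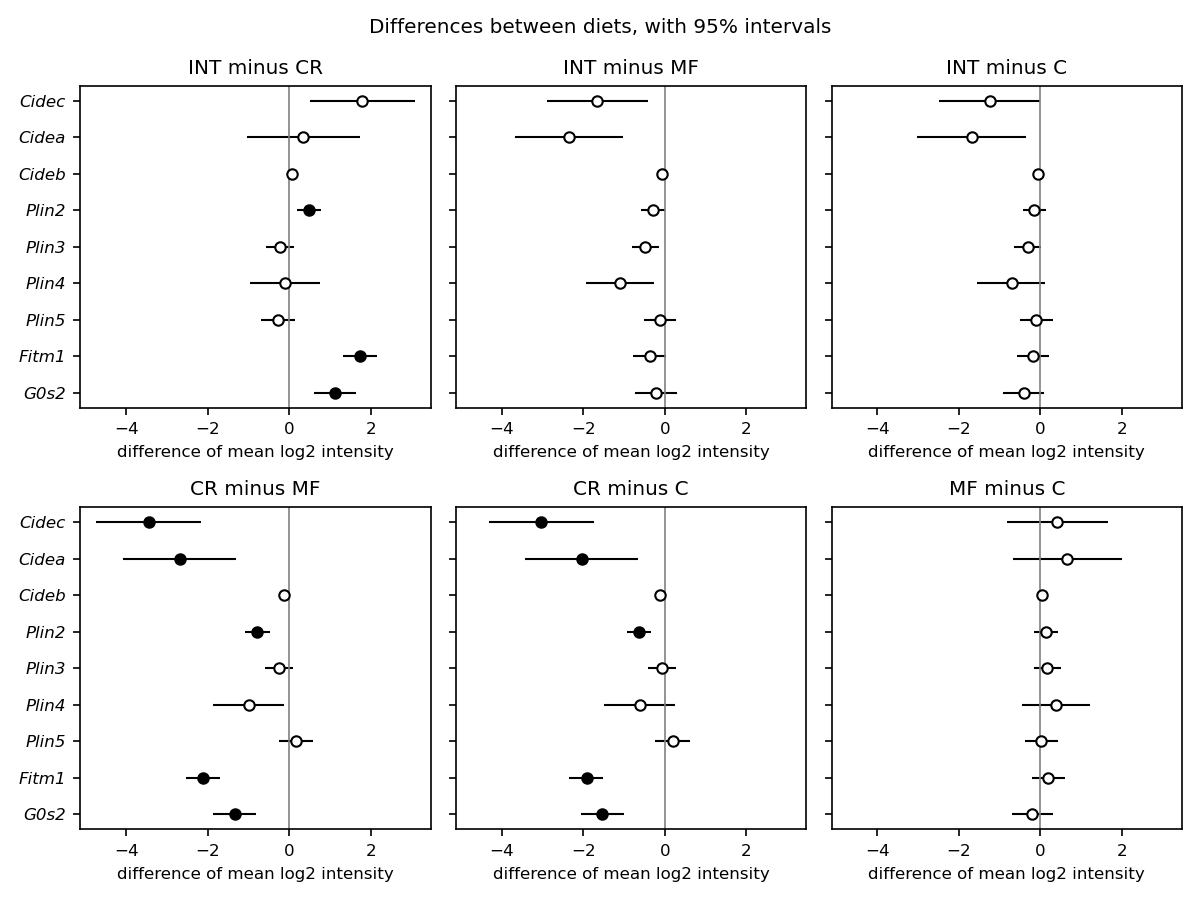
Difference of mean log2 intensity (x axis) of each droplet gene (y axis) in the 6 comparisons of diets, with 95% intervals from limma. Filled circles are called at an adjusted p under 0.05, and they lie to the right of 0 between INT and CR and to the left of 0 between CR and MF and between CR and C. Cidea is drawn as measured, with nearly all INT- and CR-fed mice under 20.

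Livers on one diet differed widely in some of these genes. Within MF, Cidec ranged over 4.59 log2 units (24.0-fold) and Cidea over 4.63 (24.7-fold). Within C the ranges were 2.91 (7.53-fold) and 4.14 (17.6-fold). The SD of Cidea was 0.37 in INT-fed, 0.19 in CR-fed, 1.81 in MF-fed and 1.79 in C-fed mice, and only 3 of 13603 genes in MF and 2 in C had a larger one. Cidec had SDs of 1.04, 0.31, 1.80 and 1.17 in INT, CR, MF and C, and ranked 10th, 803rd, 5th and 28th. Plin4 was among the 76 most variable genes in every diet (SD 0.74, 0.62, 1.03 and 0.82). Cideb, at the other end, had SDs of 0.07 to 0.09, and between 86.6% and 92.5% of genes varied more. A gene near background has less room to vary, which touches Cidea in INT and CR.
Spread was compared with limma on the absolute deviations from the diet mean. Of the 8 genes other than Cidea, limma called 0 in any comparison, with 5 of 48 differences at an unadjusted p under 0.05. Cidea passed the threshold between INT and C, CR and MF and CR and C, but nearly all its values in INT and CR lay under the intensity minimum, so this says nothing of the spread of its expression. Its mean deviation was 0.29 in INT, 0.16 in CR, 1.64 in MF and 1.69 in C. The share of all genes called was 0.0441% between INT and C, 0.11% between CR and MF, 0.147% between CR and C, 0.0441% between INT and CR, 0% between INT and MF (1371 genes at an unadjusted p under 0.05) and 0.0368% between MF and C. Cidec between CR and MF stood at -1.32 (standard error 0.33, adjusted p = 0.0855) and was called without INT replicate 1 or MF replicates 2, 5 or 7.

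**Figure D3:**
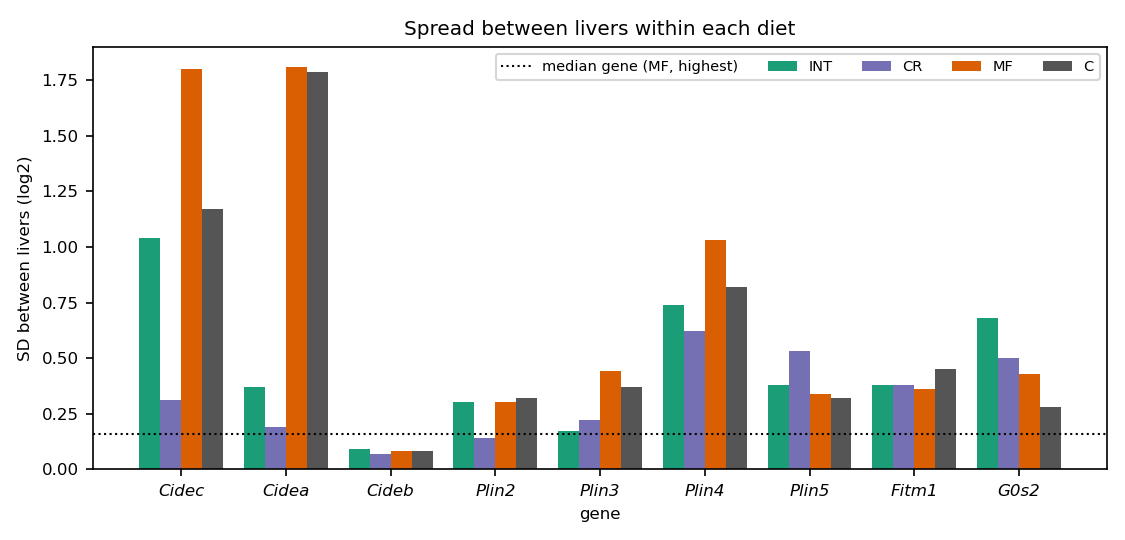
SD of log2 intensity between livers of the same diet (y axis) for each droplet gene (x axis), with bars in the order INT, CR, MF and C. The dotted line is the SD of the median gene in MF, 0.16, the highest of the 4 diets. Cidea reaches 1.81 in MF and 1.79 in C.

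With diet means removed and all livers pooled, Plin4, Plin2 and Fitm1 went with Cidec by a test over the whole table. Diet means were subtracted and each of the 8 other genes was set against Cidec over 27 livers, with a 2-sided permutation within diets (100000 resamples, smallest possible p = 1e-05). The widest gap between the centred Cidec values, pooled over diets, was 0.82 in a range of 4.73. Pooling can hide clusters within a diet, so this gap does not exclude them, and they were not tested. Before centring, Cidec in MF was 6.19 and 7.01 in the lowest livers and 8.56 in the next. In C it was 7.35, 7.35 and 7.58 in the lowest livers and 8.75 in the next. Pearson's r was 0.87 for Plin4 (p = 1e-05, Spearman's rho 0.85, p = 1e-05), 0.84 for Cidea (p = 2e-05, rho 0.79, p = 0.00019) and 0.79 for Plin2 (p = 3e-05, rho 0.76, p = 9e-05). These 3 were the closest. Pearson's r was 0.61 for Fitm1 (p = 0.001, rho 0.61, p = 0.00216), 0.60 for Cideb (p = 0.00239, rho 0.63, p = 0.00161), 0.49 for Plin3 (p = 0.0384, rho 0.32, p = 0.151), 0.47 for G0s2 (p = 0.011, rho 0.46, p = 0.0186) and 0.43 for Plin5 (p = 0.0164, rho 0.46, p = 0.0218). In a limma fit with diet and Cidec over the whole table, 11.6% of 13602 genes were related to Cidec. Of the 8, this fit called 4, Plin4 (adjusted p = 2.68e-06), Cidea (1.13e-05), Plin2 (0.000165) and Fitm1 (0.0125), and not G0s2 (0.075), Cideb (0.0756), Plin3 (0.0657) or Plin5 (0.126). Which 4 are called depends on the gene used as covariate. With Fitm1 in that place Cidec was not called (adjusted p = 0.0615, with 0.669% of all genes called), and with Cideb it was (adjusted p = 0.0376, with 3.07% called). Cidea lay above 20 in 11 of the 27 livers, so its relation to Cidec is given as a description and supports nothing. A rise of Cidec by 1 log2 unit went with 0.90 (standard error 0.11) in Cidea, 0.58 (0.07) in Plin4 and 0.18 (0.03) in Plin2.
Without the 2 livers farthest from the median of Cidec, MF replicates 6 and 1, r was 0.83 for Plin4 (permutation p = 2e-05), 0.75 for Cidea (p = 0.00035), 0.72 for Plin2 (p = 0.00077), 0.53 for Fitm1 (p = 0.0146), 0.54 for Cideb (p = 0.0127) and 0.45 for G0s2 (p = 0.0282). It was 0.30 for Plin3 (permutation p = 0.207) and 0.36 for Plin5 (p = 0.0592), so that for Plin3 the relation no longer held, while for Plin5 r was little lower and its p above 0.05. Without INT replicate 1, r was 0.35 for G0s2 and 0.34 for Plin5.

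**Figure D4:**
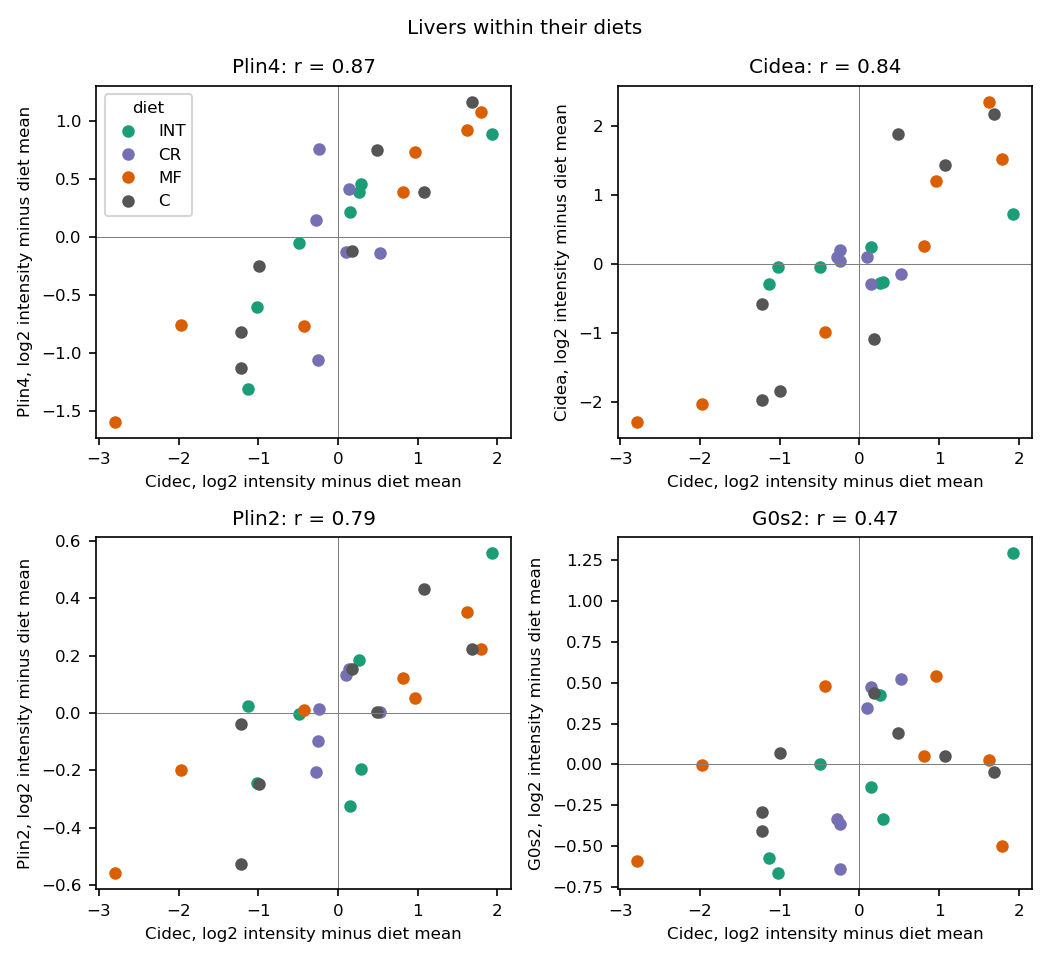
Log2 intensity minus the mean of the diet for Plin4, Cidea, Plin2 and G0s2 (y axes) against the same for Cidec (x axes), with 1 point per liver, coloured by diet. Pearson's r is 0.87, 0.84, 0.79 and 0.47.

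Within single diets the relations differed in strength, which is given as a description since each diet holds 6 or 7 livers and no difference between diets was tested. In MF, r with Cidec was 0.96 for Cidea and Plin4, 0.95 for Plin2, 0.91 for Fitm1, 0.83 for Cideb and 0.81 for Plin3, but 0.25 for G0s2. In INT it was 0.95 for Plin5, 0.90 for G0s2 and 0.89 for Plin4, but 0.66 for Plin2, 0.31 for Fitm1 and -0.70 for Plin3. In C it was 0.92 for Plin4, 0.87 for Cidea, 0.81 for Plin2 and Cideb and 0.70 for Fitm1, but 0.59 for Plin3, 0.46 for G0s2 and 0.19 for Plin5. In CR, where Cidec ranged over 0.79 log2 units only, G0s2 had 0.90, Plin2 0.54, Fitm1 0.40, Plin4 0.01 and Cidea, under the intensity minimum, -0.67. The same livers stood at the edge for several genes. INT replicate 1 was the highest INT-fed liver in 6 of the 9 genes (Cidea, Cidec, Plin2, Plin4, Plin5 and G0s2), whereas INT replicate 6 was lowest in 5. MF replicate 6 was lowest in 7 of the 9 genes, all but Cideb and Fitm1, and MF replicate 4 highest in 5. C replicate 6 was lowest in 5 and C replicate 5 highest in 4.

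**Figure D5:**
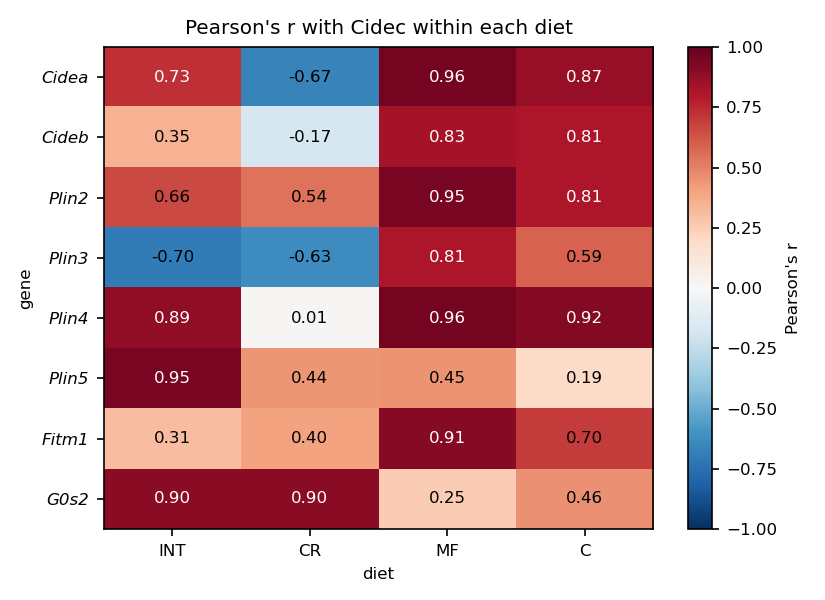
Pearson's r of each droplet gene (y axis) with Cidec over the livers of a single diet (x axis: INT, CR, MF and C, with 7, 6, 7 and 7 livers). Red is positive and blue negative, and the MF column runs from 0.25 for G0s2 to 0.96 for Cidea and Plin4.

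Of all 36 pairs of the 9 genes, 33 had a positive r, and r lay between -0.31 and 0.87. By the permutation test, 18 of the 36 passed the threshold when adjusted over the pairs. The pairs share genes, so they are not separate results. The share of positive r among pairs of other genes was not computed. Pairs with Cidea are included in these counts and are descriptions only. Plin5 had an r of 0.17 with Cidea (p = 0.354, rho 0.16, p = 0.429) and of 0.12 with Cideb (p = 0.552, rho 0.14, p = 0.505). Plin5 went with G0s2, at 0.64 (permutation p = 0.00047, rho 0.60, p = 0.00199, and 0.46 without the 2 livers farthest from the median of Plin5), a relation that limma called over the whole table (adjusted p = 0.0284, with 1.37% of genes called). Cideb, though nearly constant, went with Plin4 at 0.78 (p = 3e-05, rho 0.80, p = 2e-05, 0.79 without the 2 farthest livers, limma adjusted p = 0.00567, with 3.07% of genes called), and r was 0.68 in INT, 0.81 in CR, 0.80 in MF and 0.89 in C. The neighbours Plin4 and Plin5 had 0.54 (p = 0.00393, rho 0.51, p = 0.00996, and 0.48 without the 2 farthest livers of Plin4). Over the whole table limma did not call this relation with Plin5 as covariate (adjusted p = 0.109, with 1.37% of genes called). With Plin4 as covariate it did (adjusted p = 0.0418, with 8.49% called). Plin3 had negative values with Plin5 (-0.31, p = 0.111, rho -0.33, p = 0.105) and G0s2 (-0.27, p = 0.132, rho -0.33, p = 0.0964).

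Over the whole table of 13602 other genes, the 5 most like Cidec between livers were Tead1, a transcription factor of the Hippo pathway (r = 0.92), the fatty acid transporter Cd36 (0.91), Tmem189 (0.91), Tbl1xr1, a part of nuclear receptor corepressor complexes (0.90), and Enc1 (0.89). Plin4 ranked 11th, Cidea 21st and Plin2 52nd. Most like Plin2 were Acot2, a mitochondrial acyl-CoA thioesterase (0.90), Kdsr, an enzyme of sphingolipid synthesis (0.86), Rab30 (0.84), Igsf11 (0.84) and Crat, carnitine acetyltransferase (0.84), and Cidec ranked 17th. These values describe 27 livers after subtraction of diet means and carry no test.

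Markers of other cells were set beside these results. Of all genes, 8.37% were called higher and 6.62% lower between INT and CR. The shares were 8.57% and 11.2% between CR and MF and 8.46% and 9.05% between CR and C. Adipoq and Lep, which define adipocytes, lay under 20 on all 27 arrays. The summed intensity of 9 adipocyte markers was 571.5 to 654.1 in INT-fed, 636.9 to 1027.3 in CR-fed, 588.2 to 939.2 in MF-fed and 561.6 to 857.8 in C-fed mice, with the highest median, 729.5, in CR. Of the 7 that passed the minimum, 1 (Lipe) was higher and 2 (Pnpla3 and Slc2a4) lower between INT and CR. Between CR and MF and between CR and C, Pnpla3 and Slc2a4 were higher and Lipe lower. Plin1, Lipe and Pnpla3 also stand in the list of other droplet genes below. Lipe ranged from 129.7 to 427.3 in intensity and Pnpla3 from 41.2 to 326.7, so the sum also carries droplet genes. Between livers that sum went with Cidec (r = 0.60, p = 0.00195, rho 0.55, p = 0.00454, adjusted p = 0.0117 over 6 marker lists, and 0.48 without the 2 farthest livers). The part of adipocytes in the relations was not tested. The summed intensity of 6 macrophage markers was 1979.7 to 3123.7 in INT-fed, 3089.3 to 4687 in CR-fed, 2164.5 to 3471.3 in MF-fed and 2527.6 to 3899.3 in C-fed mice, and 4 of the 6 were lower in INT than in CR, with 2 higher in CR than in MF and 2 higher in CR than in C. Between livers their sum had an r of 0.24 with Cidec (p = 0.281, rho 0.18, p = 0.405), and the macrophages' part in the differences from CR was not tested. The sum of 6 hepatocyte markers was 52570.8 to 59490.7 in INT-fed, 59752.1 to 62427.3 in CR-fed, 50013.9 to 56981.2 in MF-fed and 52332 to 59536.5 in C-fed mice, and 2 of the 6 were called between CR and each other diet, higher in CR. With Cidec it had an r of -0.52 (p = 0.0235, rho -0.50, p = 0.0225, adjusted p = 0.0706 over 6 lists), and its part in the results was not tested. Of 5 endothelial markers, Kdr was higher in CR than in MF (0.28, limma adjusted p = 0.00742) and in C (0.24, adjusted p = 0.0261), and Lyve1 lower in CR than in MF (-0.77, adjusted p = 0.0316). Their sum was 3631.1 to 4323.7 in INT-fed, 3837.3 to 4333.1 in CR-fed, 3599.8 to 4643.7 in MF-fed and 3725.7 to 4170.1 in C-fed mice, with an r of 0.23 with Cidec (p = 0.392, rho 0.23, p = 0.296). Of 6 stellate markers 0 were called. Their sum was 4189.2 to 5485.1 in INT-fed, 4649.9 to 5562.4 in CR-fed, 4502.6 to 5423.5 in MF-fed and 4353.4 to 5302.6 in C-fed mice, with an r of 0.32 (p = 0.137, rho 0.38, p = 0.0663). The part of these cells in the results was not tested.

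Other genes of droplet metabolism did not move one way. Of 31 listed genes, 28 were tested. Between INT and CR, 5 were higher and 5 lower, between CR and MF 5 were higher and 8 lower, and between CR and C 4 were higher and 5 lower, with 0 in the other comparisons. Of all genes, 8.37% were called higher and 6.62% lower between INT and CR. The shares were 8.57% and 11.2% between CR and MF and 8.46% and 9.05% between CR and C. The median over the 28 was 0.02, -0.05 and -0.04 in the comparisons with CR. Named here are up to 3 called genes of largest change per comparison. Pnpla3, a droplet protein with lipase and acyltransferase activity, went the other way from the droplet genes, with -1.70 between INT and CR, 1.48 between CR and MF and 1.22 between CR and C (limma adjusted p = 4.24e-06, 2.58e-05 and 0.000276). So did Lpin1, a phosphatidate phosphatase, against INT and MF, with -0.99 between INT and CR and 0.96 between CR and MF (adjusted p = 0.00659 and 0.00661). Between CR and C it stood at 0.40 and was not called (adjusted p = 0.298). Lower in CR were Mgll, monoglyceride lipase, with 0.75 between INT and CR and -0.77 between CR and C (adjusted p = 4.39e-05 and 2.9e-05), and hormone-sensitive lipase (Lipe), with -0.73 between CR and C (adjusted p = 0.000554). The acyltransferase Mogat1, counted among the 8 lower between CR and MF, stood at -1.89 there (limma adjusted p = 0.00149). Its mean of 3.97 in CR lay under the intensity minimum (4.32 on the log2 scale), against 5.86 in MF. That difference is a description and supports nothing. Of 12 regulators of droplet genes, 2 were higher and 1 lower between INT and CR, 2 higher and 2 lower between CR and MF, and 1 higher and 2 lower between CR and C. The same shares of all genes stand beside these counts. The median over the 12 was -0.03, 0.05 and -0.01. The coactivator Ppargc1a was higher in CR than in MF by 2.04 (standard error 0.16, limma adjusted p = 1.47e-09), and Ppara, the receptor that drives fatty acid oxidation in the fasted liver, was lower (-0.37, standard error 0.08, adjusted p = 0.00106), as was Creb3l3 (-0.45, standard error 0.07, adjusted p = 2.59e-05).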

How the data were processed

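Total liver RNA was hybridised to Affymetrix Mouse Gene 1.1 ST arrays, 1 per mouse. The deposited values are log2 intensities that the authors normalized together by RMA (background correction, quantile normalization and summary of probes). Entrez-based probe sets are named in the methods, whereas the table held 35556 sets of the maker. Those naming several genes (1881) or none (12457) were left out, and the probe set of highest mean was kept for 1386 genes with several. Symbols came from the array's annotation and a GRCm38.p6 gene table. Groups came from the sample labels. Tests used limma 3.58.1 in R 4.3.3 on 13603 genes (Benjamini-Hochberg, threshold 0.05), tested on simulated data. The spread test used deviations scaled by the square root of n/(n - 1). Relations and figures used Python 3.11.15, numpy 2.4.6, pandas 2.3.3, scipy 1.17.1 and matplotlib 3.10.9. Arrays carry no read depth, and the number of mice limits the precision. Named genes are the 10 members, the 5 genes most like Cidec and Plin2, and up to 3 called genes of largest change per list and comparison. Members and lists were chosen with earlier results of these data known. The fits of all member pairs, the fit with Cidec over the whole table, the marker sums, the mouse number as a block, the counts without Cidea and the TATAA search were added after the data had been seen. The other settings were further intensity minimums, scalings, variance models and blocks, each array set and each mouse left out.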

Additional observations from a re-analysis of the deposited data

How the results depend on the processing

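The counts of called droplet genes, here with Cidea included, were 3 between INT and CR, 5 between CR and MF and 5 between CR and C. They stayed within 1.5 times of these under the other intensity minimums, scalings, variance models, probe set averages, array weights and the array set as a block. Cidea supports nothing, and without it the counts were 3, 4 and 4. Cidec, Plin2, Fitm1 and G0s2 stayed called between CR and MF and between CR and C under each of these settings. Within replicates 5 to 7, fewer mice were tested, with 3 INT-fed, 2 CR-fed, 3 MF-fed and 3 C-fed mice. There, 1 was called between INT and CR (Fitm1), 2 between CR and MF and 2 between CR and C (Fitm1 and G0s2). Fewer of all genes were also called there in each of these comparisons than over all mice. Whether the droplet genes lost calls more often than other genes was not tested, here or in the settings below. The study's own test (one-way, Tukey afterwards), unadjusted over genes, called 1 between INT and MF (Cidea). With Benjamini-Hochberg adjustment the same test called 2 between INT and CR, 4 between CR and MF and 4 between CR and C. It lost Plin2 (adjusted p = 0.16) in the first and Cidea (adjusted p = 0.0563 and 0.265) in the others. With this adjustment the test also called fewer of all genes in each of these comparisons than limma did. Leaving out single mice gave 2 to 4 between INT and CR, 5 to 7 between CR and MF and 4 to 5 between CR and C. The spread counts, which stand on Cidea except where 2 are given and carry no support, of INT and C, CR and MF and CR and C were each 0 with the median of the diet as centre. That of INT and C was also 0 after median centring and with array set means removed. With single mice left out they ranged from 0 to 1 for INT and MF, 0 to 1 for INT and C, 0 to 2 for CR and MF and 0 to 1 for CR and C. The cause was not tested. All 8 relations to Cidec passed at 0.05 when adjusted over the 8 relations, with that of Cidea given as a description. The count was 6 to 8 with single mice left out, and 5 with array set means removed within each diet (Cidea, Cideb, Plin2, Plin4 and Fitm1).

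Differences of genes that were called in neither setting changed sign within one array set. Within replicates 5 to 7 they were -0.01 for Cidea between INT and CR, -0.63 for Cidea, -0.01 for Cideb, -0.44 for Cidec, -0.03 for Plin2 and -0.16 for Plin3 between MF and C, 0.19 for Plin3 between CR and MF, 0.02 for Plin3 between CR and C, and for Plin5 0.13 between INT and CR, -0.58 between CR and MF and -0.42 between CR and C. Within replicates 1 to 4 they were 0.03 for Plin4 between INT and CR, 0.04 for Fitm1 between INT and C, 0.18 for G0s2 between INT and MF, and for Plin5 0.12 between INT and MF, 0.05 between INT and C and -0.08 between MF and C. Plin5 between MF and C was -0.01 after median centring. With single mice left out, Plin3 between CR and C ranged from -0.17 to 0.01, Plin4 between INT and CR from -0.32 to 0.11 and Plin5 between MF and C from -0.07 to 0.10.

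The labels do not say that equal replicate numbers mark paired mice, so the number was not taken as a pairing. Of the pairs with equal number, 17 of 39 had a correlation above 0.1 (mean 0.07), which cannot decide whether they share a block. By the data, 12 of 27 mice were closest to mice of their own replicate number, and same-numbered mice lie in the same array set. The count expected by chance was not computed, here or for the mouse numbers, so a structure tied to either number was not tested. For the mouse numbers of the labels, which also recur between diets, 11 of 39 pairs were above 0.1 (mean 0.005), and 4 of 27 mice were closest to their own number. With the replicate number as a block, 3 members were called between INT and CR, 6 between CR and MF, which then included Cideb (-0.14, limma adjusted p = 0.0327), and 5 between CR and C, and 0 in the other comparisons. The mouse number as a block was an alternative chosen after seeing the data. With it, 2 were called between INT and CR, 6 between CR and MF and 4 between CR and C. Fewer of all genes were called in each of these comparisons than without a block.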
